A study of Homo sapiens with 9 samples.

Results

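The HOXA cluster was described through every listed EZH2, H3K27me3 and H3K27ac region that shared at least 1 bp with chromosome 7 from 27137000 to 27250000 (hg19). This interval of 113 kb runs from HOXA2, near its left edge, to HOXA13 on the minus strand, whose span of 27236499 to 27239725 puts its start site at 27239725. It held 32 of the 335291 regions in the 6 deposited lists. The cells were LNCaP, an established human prostate cancer line grown in RPMI with 10% serum. They carried either a lentivirus labelled plko.1 (control), the backbone used for hairpin knockdown, or the knockdown virus labelled shEZH2, whose hairpin the labels do not name, and were fixed with 1% paraformaldehyde 2 to 3 days after infection. EZH2, H3K27me3 and H3K27ac were each mapped by ChIP-seq in both, with the same antibody lot for a target in both groups and 1 library in each of the 6 groups. In the control lists 11 EZH2 peaks, 7 H3K27me3 regions and 5 H3K27ac regions fell in the interval, and in the shEZH2 lists 1, 4 and 4.

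HOX genes encode homeodomain transcription factors that give cells their position along the body axis. Within a cluster they lie in the order in which they are used, from head to tail. EZH2 is the enzyme of Polycomb repressive complex 2 that trimethylates lysine 27 of histone H3, and HOX clusters are textbook targets of this complex. H3K27me3 over them marks silent genes, whereas H3K27ac on the same residue marks active promoters and enhancers. HOXA2 patterns the hindbrain and the neural crest of the second pharyngeal arch. HOXA13 is needed for the distal limb and the urogenital tract. From left to right RefSeq (GRCh38.p14) gave the order HOXA2, HOXA3, HOXA4, HOXA5, HOXA6, HOXA7, HOXA9, HOXA10, HOXA11 and HOXA13, with HOTTIP and EVX1 to the right. No hg19 annotation was used here, so regions between HOXA2 and HOXA13 are given by position and by their distance from the HOXA13 start site, not by gene.

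The promoters of the 2 genes that the interval places are shown. Each line holds the 250 bases before the start site from RefSeq (GRCh38.p14, chr7:27102684-27102933 and chr7:27200092-27200341, minus strand), 5′ to 3′, with CG dinucleotides in capitals. These positions are not on the build of the peak lists. The control EZH2 peaks at HOXA13 lay inside the gene, 355 and 907 bp from its start site, and not in the bases shown. A relation between CG number and EZH2 was not tested.
HOXA2: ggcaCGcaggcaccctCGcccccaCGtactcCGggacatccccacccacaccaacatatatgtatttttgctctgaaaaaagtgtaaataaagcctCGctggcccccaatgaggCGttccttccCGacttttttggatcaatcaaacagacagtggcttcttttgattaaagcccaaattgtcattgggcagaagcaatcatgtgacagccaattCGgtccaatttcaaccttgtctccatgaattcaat
HOXA13: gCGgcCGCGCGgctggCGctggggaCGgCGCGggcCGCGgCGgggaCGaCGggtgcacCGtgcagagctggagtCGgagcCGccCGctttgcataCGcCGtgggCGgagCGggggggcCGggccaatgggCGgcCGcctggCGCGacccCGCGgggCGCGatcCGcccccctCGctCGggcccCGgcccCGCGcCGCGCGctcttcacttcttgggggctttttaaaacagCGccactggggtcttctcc
The HOXA13 promoter held 40 CG dinucleotides, more than 97.8% of the 35116 promoters in the table, and the HOXA2 promoter held 8, more than 43.7%. CG, which reads the same on both strands, occurred in 93.9% of all promoters. Promoters were listed for 9 of the 10 genes, all but HOXA5, 16 in all, with a median of 19 CG against 11 over the table. Their values ran from 0 at a HOXA3 start site to 40 at HOXA13.

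The libraries held 13331155 to 33289172 tags. Values below are tags per region after the authors' scaling of every library to 10000000, called normalised tags or tags, and tags before scaling are called library tags. The 95% intervals are exact Poisson or binomial intervals that cover counting error only. With 1 library per group no difference could be set against a spread between cultures, and no p-value was computed. An EZH2 call needed 9 library tags in 183 bp in control (36.9 normalised tags per kb) and 10 in 151 bp in shEZH2 (45.6 per kb), and a peak also had to exceed the 10 kb around it by 4-fold. Genome-wide there were 23060 EZH2 peaks in control and 9493 in shEZH2, and the EZH2 level of the cells was not measured in these libraries. The histone lists were called differently: 150 bp windows in control, needing 26.0 normalised tags per kb for H3K27me3 and 34.4 for H3K27ac, and 1000 bp windows in shEZH2, needing 9.53 and 9.47. Windows were joined into regions, whose mean density can lie below that of a call. Widths, covered lengths and summed tags of the histone marks thus cannot be compared directly between the groups. In bulk chromatin, less signal per cell and fewer cells with it cannot be told apart.

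Along the cluster, EZH2, H3K27me3 and H3K27ac were for the most part listed at separate places in control cells. H3K27me3 lay in 4 short regions on the left, at 96.4 to 68.9 kb from the HOXA13 start site, in 1 at 38.0 kb, and in 2 at HOXA13 itself. H3K27ac lay between 51.1 and 24.7 kb from that site, and the control list had none in the leftmost 51.3 kb or the rightmost 34.5 kb. EZH2 peaks ran from 69.7 kb to the HOXA13 gene, and the leftmost 33.0 kb, which held 2 of the H3K27me3 regions in full, had no EZH2 peak in either group. Listed H3K27me3 covered 1.78% of the interval in control and H3K27ac 4.91%. No control region of either mark touched the other, 0 of 7 for H3K27me3 and 0 of 5 for H3K27ac, against 1.23% and 2.08% of their lists. Separate H3K27me3 and H3K27ac regions were thus usual in the whole lists and not particular to the cluster.

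**Figure D1:**
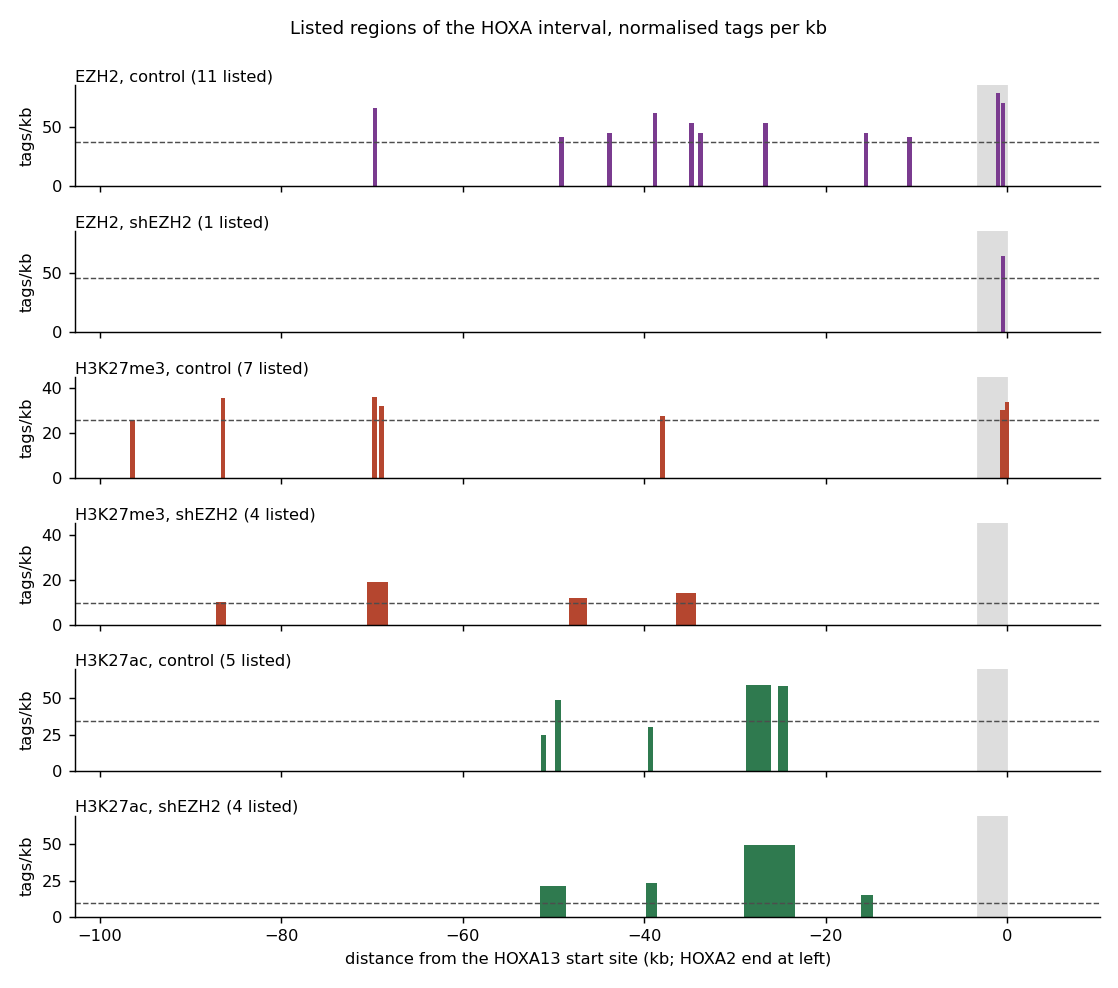
Listed regions of the HOXA interval in the 6 libraries, by distance from the HOXA13 start site (x axis, kb) and density (y axis, normalised tags per kb). Bars are regions, drawn with a minimum width so that narrow windows can be seen, the grey band is the HOXA13 span and dashed lines are the density of a call. Control shows 11 EZH2 peaks and shEZH2 shows 1, at HOXA13, while the H3K27ac block 26.2 kb left of the start site appears in both.

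EZH2 was listed at 11 windows in control, of which the strongest held more tags than 73.3% of the control list. Their normalised tags had a lowest value of 7.5, a median of 9.75 and a highest value of 14.3, and 7 of the 11 were below the median of the whole control list, 10.5. The highest values were at HOXA13 and at the left H3K27me3 island, and the lowest were in between. At HOXA13 the window from 27238636 to 27238818 held 14.3 tags (95% Poisson interval 8.58 to 22.3) and that from 27239188 to 27239370 held 12.8 (7.43 to 20.4). They lie 907 and 355 bp inside the gene from its start site. The peak from 27169951 to 27170133, 69.7 kb to the left, held 12.0 tags (6.86 to 19.5) and stood 12.44-fold above its surroundings, which was the highest fold of the 11.

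The 8 peaks between these ends were closer to the 4-fold filter, at 4.95 to 6.54-fold over their surroundings against 9.6 to 12.44-fold at the other 3. From left to right, the peak from 27190522 to 27190704 held 7.5 tags, and the one from 27195775 to 27195957 held 8.25. The peak from 27200808 to 27200990 held 11.3 tags (6.30 to 18.6), the highest of these 8. Windows from 27204853 to 27205035 and from 27205861 to 27206043 held 9.75 and 8.25. The window from 27213004 to 27213186 held 9.75, that from 27224088 to 27224270 held 8.25, and that from 27228838 to 27229020 held 7.5. All 11 Poisson intervals overlapped, so no order among the peaks holds beyond counting error.

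**Figure D2:**
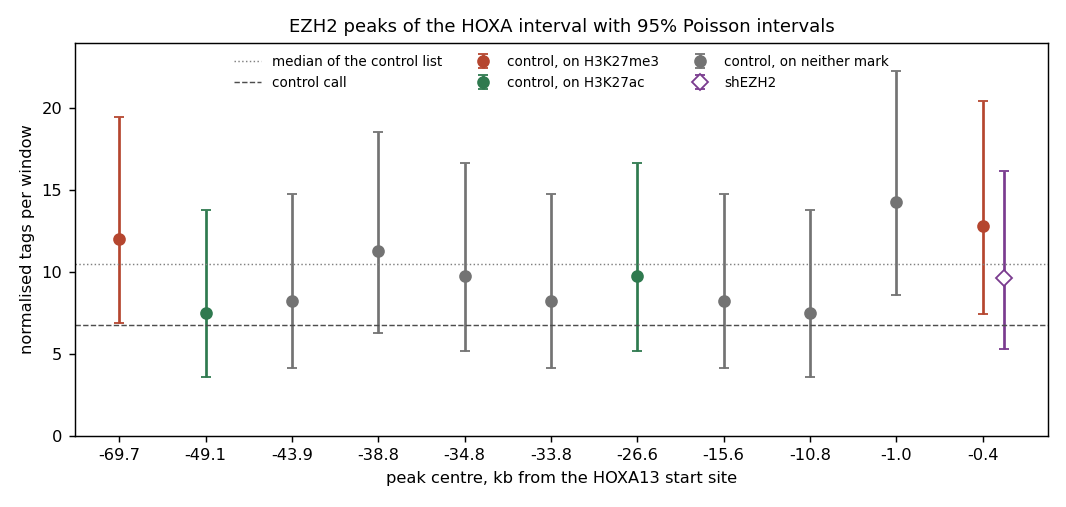
Normalised EZH2 tags per window (y axis) at the 11 control peaks and the shEZH2 peak, ordered from left to right by the peak centre in kb from the HOXA13 start site (x axis). Points are single libraries with 95% Poisson intervals, colours give the control mark at the peak, and lines give the control call and the median of the control list (10.5). All intervals overlap, and the shEZH2 value of 9.65 lies within the interval of the control peak beside it.

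The surroundings of these peaks also held EZH2 tags above the library mean. Dividing the density of each peak by its deposited fold gives the local density that the caller used. In the interval it ran from 5.27 normalised tags per kb at the left H3K27me3 island to 10.8 at the peak from 27204853, with a median of 7.95. The library mean was 4.31 per kb, below all 11 values. Peak starts lay as close as 552 bp, so the 10 kb surroundings overlapped and could hold other listed peaks. The 11 values are thus not independent. Over all 23060 control peaks the median local density was 7.03 per kb (quartiles 4.81 and 10.6), so the interval was not unusual for a place with EZH2 peaks. The fold over local background was below the list median of 8.25 at 8 of the 11 peaks, and the exceptions were the peak at 27169951 and both HOXA13 peaks.

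Most EZH2 peaks of the cluster lay on neither mark. In control, 7 of 11 peaks (63.6%, exact binomial interval 30.8 to 89.1) touched no listed H3K27me3 or H3K27ac region, against 23.9% of all control EZH2 peaks. The other 4 of 11 lay on a mark, against 76.1% of the list and 73.0% of the control peaks with 10 to 19 library tags, the range of the 11. On H3K27me3 lay 2 peaks (18.2%, 2.28 to 51.8), against 44.2% of the list, and on H3K27ac lay 2 others, against 34.4%. The H3K27me3 peaks were those at 27169951 and 27239188. The H3K27ac peaks were those at 27190522 and 27213004. For each mark by itself the interval of the share held the value of the whole list. The interval of the share on neither mark lay above 23.9%. As it treats neighbouring peaks as independent, it is not a test against the list. Over 1 kb from both marks lay 5 peaks (45.5%, 16.7 to 76.6), against 15.2%. Peaks of a single locus share a library and their surroundings and are not replicates.

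The wider shEZH2 histone regions reached further control EZH2 peaks. H3K27ac of shEZH2 covered those at 27190522, 27200808, 27213004 and 27224088, 4 of 11 against 41.8% of the list. H3K27me3 of shEZH2 covered those at 27169951 and 27204853, 2 of 11 against 56.3%. By the shEZH2 marks 5 of 11 peaks (45.5%) lay on neither, against 9.24% of the list. With the marks of both groups together, 3 peaks lay on H3K27me3 (27.3%, against 56.8%), 4 on H3K27ac (36.4%, against 42.0%) and 4 (36.4%, 10.9 to 69.2) on neither, against 8.84% of all control peaks and 9.74% of those with 10 to 19 library tags. Of these 4 peaks, the one at 27238636 in HOXA13 was 259 bp from a control H3K27me3 region and the one at 27205861 was 412 bp from a shEZH2 H3K27me3 region. The peaks at 27195775 and 27228838 were 2309 and 3893 bp from the nearest region of either mark in either group. All 4 H3K27ac regions of shEZH2 held a control EZH2 peak (100%, 39.8 to 100), against 13.6% of the list. In control 2 of 5 did (40.0%, 5.27 to 85.3), against 12.3%. For H3K27me3 it was 2 of 7 regions in control (28.6%, against 10.3%) and 2 of 4 in shEZH2, against 9.54%. These shares rest on 2 to 4 regions and on wider regions in shEZH2.

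In shEZH2 a single EZH2 peak was listed in the interval, at HOXA13, and it overlapped a control peak, as did 56.2% of the shEZH2 list. It ran from 27239163 to 27239313, shared 126 bp with the right control peak of the gene, and lay 412 bp inside the gene from the start site. It held 9.65 normalised tags (5.27 to 16.2) where control held 12.8, from 14 and 17 library tags. Per kb of window the values were 63.9 and 69.9, a log2 ratio of -0.13 (counting interval -1.26 to 0.98). Per window the log2 ratio was -0.41, and scaled to the tags in listed regions it was 0.93. The latter scaling moves with the calls, 9493 peaks in shEZH2 and 23060 in control, and is not independent of them. At these tag numbers no difference was detectable at this peak. The median over all 5331 overlapping pairs was -0.39, with quartiles of -0.79 and 0.05. The fold over local background was 11.14 in shEZH2 and 9.6 in control, and the local density 5.74 and 7.29 per kb.

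The other 10 control peaks were not listed in shEZH2. The share called again was 1 of 11 (9.09%, 0.230 to 41.3), against 23.1% of all control peaks. Of the control peaks with 10 to 19 library tags, 12.5% were called again. At 10 library tags the share was 5.07% and at 17, the number at the HOXA13 peak called again, 24.6%. The count for the cluster is therefore near that of peaks of its strength. The other HOXA13 peak, at 27238636 with 19 library tags, was not listed in shEZH2, and 32.2% of control peaks with that number were. A window that is not listed can still hold tags under the call, or more where it misses the 4-fold filter, so the lists do not give its signal.

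The interval was dense in EZH2 peaks for its length and, against other windows as dense, low in listed H3K27me3. Among 26625 other windows of the same length along the chromosomes, 62 (0.233%) held 11 or more control EZH2 peaks. By listed EZH2 tags, 407 windows (1.53%) held at least as many as HOXA. In those 62 windows a median of 81.8% of EZH2 peaks lay on control H3K27me3, against 18.2% at HOXA, and 8.33% lay on neither mark, against 63.6%. The next highest share on neither mark among the 62 was 61.5%. These shares use the control marks alone, and that of HOXA rests on 7 of 11 peaks. With the marks of both groups it was 36.4% at HOXA, and the other windows were not compared in that way. Listed control H3K27me3 came to a median of 951 normalised tags in these windows and to 64.9 at HOXA, and 58 of the 62 held more than HOXA. Listed H3K27ac came to a median of 123 tags and to 288 at HOXA, and 22 of the 62 held more. Over all windows, 14.4% held at least as many H3K27me3 tags as HOXA and 17.0% at least as many H3K27ac tags. Sequence with many repeats was not separated out among these windows.

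Dense windows also held more EZH2 peaks in shEZH2. The median was 7 (quartiles 4 and 11), against 1 at HOXA, and 61 of the 62 windows had more than HOXA. Their control peaks were stronger, with a median of the mean tags per peak of 15.7 against 9.97 at HOXA. Among the 15 windows whose peaks held on average at most 25% more tags than those of HOXA, the median number in shEZH2 was 4 and the highest 7. In 1 of these 15 windows the number was no higher than at HOXA. The highest share on neither mark among the 15 was 36.4%. The number of peaks at HOXA rests on peaks near the call: 4 of the 11 were in the upper 50% of the control list by score, 2 were among its 9493 highest scores, and none held 15 normalised tags.

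**Figure D3:**
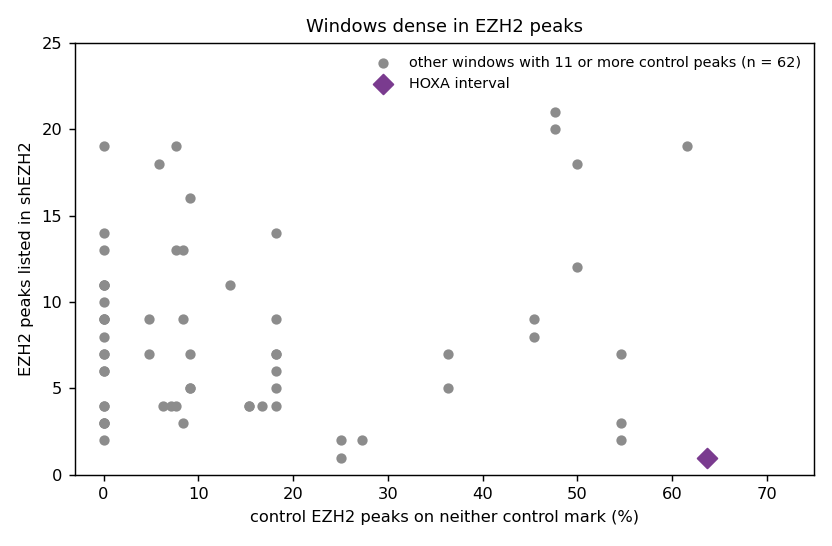
Share of control EZH2 peaks on neither control mark (x axis, %) against the number of EZH2 peaks listed in shEZH2 (y axis), for windows of the length of the HOXA interval with 11 or more control EZH2 peaks. Grey points are the 62 other windows and the diamond is the HOXA interval, which lies at 63.6% and 1 peak, to the right of and level with or below the rest.

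H3K27me3 was listed at 7 short regions in control. Together they held 64.9 tags, against a mean of 52.6 over all windows of the length of the interval. Tags per region ran from 4.21 to 20.4 with a median of 8.11, and widths from 151 to 560 bp. The left island held the highest values, 20.4 tags (15.9 to 25.9) from 27169714 to 27170273 and 12.6 (9.09 to 17.1) from 27170595 to 27170984. The former carried the EZH2 peak at 27169951. Further left, the region from 27143164 to 27143508, close to HOXA2, held 9.01 tags and that from 27153204 to 27153354 held 5.41, both without an EZH2 peak. In the middle, 4.21 tags were listed from 27201679 to 27201829. At HOXA13 the region from 27239077 to 27239343 held 8.11 tags (5.35 to 11.8), under the right EZH2 peak. The region from 27239637 to 27239787 held 5.11 (2.98 to 8.18) and spanned the start site. Stretches over 10 kb without control H3K27me3 ran from 27153355 to 27169713, from 27170985 to 27201678, from 27201830 to 27239076 and from 27239788 to the edge. They spanned 16.4, 30.7, 37.2 and 10.2 kb. The 30.7 kb and the 37.2 kb stretches held 3 and 6 of the control EZH2 peaks, and together all 5 control H3K27ac regions.

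Only part of this pattern was listed again in shEZH2. Of the 7 control H3K27me3 regions 3 overlapped a shEZH2 region (42.9%, 9.90 to 81.6), against 94.1% of the whole list. The shEZH2 call needed less density but more normalised tags per window, 9.53 in 1000 bp against 3.91 in 150 bp. The regions listed again were those at 27153204, 27169714 and 27170595. The region near HOXA2, that at 27201679 and both at HOXA13 were not. Each of these by itself held fewer than 9.53 tags in control. A 1000 bp window also counts tags beside such a region, and the shEZH2 library mean was 4.4 per kb. Whether the call setting left these regions unlisted was not tested. Among control regions with tags within 20% of theirs, matched on tags and not on neighbouring regions, 98.4%, 87.3%, 97.7% and 90.2% were listed again, in that order. The HOXA13 regions together held 44 library tags in control within 711 bp, or 13.2 normalised tags. A shEZH2 call needed 25 library tags in 1000 bp, which is 9.53 normalised tags. With 24 library tags there, just under the call, the ratio of shEZH2 to control would be 0.692 (counting interval 0.403 to 1.16). With fewer it would be lower. Control tags outside the 2 listed regions are not counted, so for the same 1000 bp this ratio is an upper limit. The lists do not give the shEZH2 count at HOXA13, so the size of any difference there is unknown. As 2.45% of listed shEZH2 regions hold fewer than 25 library tags, the call is not a strict limit.

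The shEZH2 list held 4 H3K27me3 regions in the interval. The left island was a single region from 27169147 to 27171537 with 45.3 tags (37.6 to 54.3), the highest and widest of the 4, at 2391 bp. The region from 27152578 to 27153578 held 9.91 tags (6.47 to 14.5). Regions from 27191403 to 27193466, with 24.4 tags, and from 27203189 to 27205449, with 32.0, had no control counterpart, as had 63.2% of the shEZH2 list. Their densities, 11.8 and 14.2 per kb, were below the 26.0 that a control call needed, so the mark could be present there in control without being listed. The other 2 of 4 regions overlapped a control region, against 36.8% of the list. Stretches over 10 kb without shEZH2 H3K27me3 ran from the left edge to 27152577, from 27153579 to 27169146, from 27171538 to 27191402 and from 27205450 to the right edge. The last, with HOXA13 in it, held 6 control EZH2 peaks and the shEZH2 one.

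At the left island, where both groups listed H3K27me3, the control regions lay inside the shEZH2 region, which held 1.37-fold the control tags (counting interval 1.05 to 1.80). This ratio is an upper limit for the shEZH2 region as a whole, since control tags outside the listed regions are not counted. Were the unlisted 1441 bp filled at the density that a control call needed, the ratio would be 0.643. The direction at this island was thus not determined. Over 35211 such blocks the median upper limit was 3.13, at a median width ratio of 6.65, against 2.52 here. With their unlisted bases filled, the median ratio over these blocks was 0.513, below the 0.643 of the island. The region at 27152578 held 1.83-fold the tags of the control region inside it (0.967 to 3.55), and 0.360 times with its unlisted bases filled in the same way.

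H3K27ac formed 3 blocks in the central part of the cluster and was listed at each in both groups. The largest signal in control was 160.0 tags (142 to 180) from 27210962 to 27213654, with 65.4 (53.9 to 78.5) beside it from 27214435 to 27215545. The former was 2693 bp wide, held more tags than 85.8% of control H3K27ac regions and carried the EZH2 peak at 27213004. To the left, 33.8 tags lay from 27189911 to 27190600, with the EZH2 peak at 27190522, and 12.6 from 27188347 to 27188855. The region from 27200180 to 27200729 held 16.6 tags and ended 79 bp from the EZH2 peak at 27200808. The left EZH2 peak of HOXA13 was 23091 bp from the nearest H3K27ac region in control and 13691 bp from it in shEZH2.

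All 5 control H3K27ac regions were listed again in shEZH2 (100%, 47.8 to 100), close to the 97.0% of the whole list. The main block was a region of 5686 bp from 27210670 to 27216355 with 281 tags (260 to 304), the left block one of 2928 bp from 27188193 to 27191120 with 61.8 (51.9 to 73.0), and the middle one of 1253 bp from 27199901 to 27201153 with 29.3 (22.6 to 37.4). In the same order these hold 1.25, 1.33 and 1.77 times the control tags listed inside them. The counting intervals are 1.10 to 1.42, 1.00 to 1.77 and 1.12 to 2.83. These are again upper limits. With the unlisted control bases at the density of a control call the ratios would be 0.970, 0.584 and 0.718. Over 34058 such blocks the median upper limit was 1.46, and the median with unlisted control bases filled was 0.641. The region from 27223662 to 27224945, with 19.4 tags (14.0 to 26.1) around the control EZH2 peak at 27224088, was listed in shEZH2 alone, as were 41.0% of that list. Its density of 15.1 per kb was below the 34.4 of a control call. The other 3 of 4 regions overlapped a control region, against 59.0%.

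**Figure D4:**
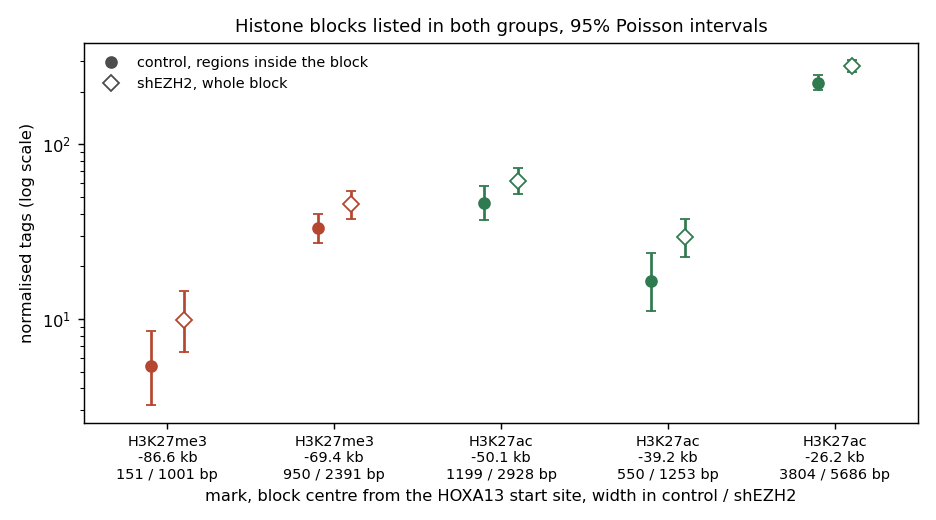
Normalised tags (y axis, log scale) at the 5 places of the HOXA interval where both groups listed the same mark, labelled by mark, distance of the centre from the HOXA13 start site and width in control and shEZH2. Filled points sum the control regions inside the block, open diamonds are the whole shEZH2 region, and bars are 95% Poisson intervals. The open diamonds are 1.25 to 1.83 times the filled points but cover more sequence.

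Summed over the interval, listed H3K27me3 came to 64.9 normalised tags over 2.02 kb in control (32.2 per kb) and 112 over 7.72 kb in shEZH2 (14.5 per kb). Listed H3K27ac came to 288 tags over 5.55 kb (51.9 per kb) and 392 over 11.2 kb (35.1 per kb). The ratio of the sums, shEZH2 over control, was 1.72 for H3K27me3 and 1.36 for H3K27ac. Scaled to the tags in listed regions, which move with the call settings, it was 0.673 and 1.06. Over the shared blocks alone, with their unlisted control bases at the density of a control call, it was 0.563 and 0.853. The direction between the groups was thus not determined for either mark.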

How the data were processed

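The submitters' processing notes name BWA 0.6.1, HOMER 4.1 and the build hg19. HOMER's findPeaks ran on each library alone and no input is named, per the file headers. The deposited signal is tags per region scaled by the authors to 10000000 tags. The deposited score is the caller's, not scaled for depth, and only ranks regions within a list. The deposited fold and p-value of an EZH2 peak compare it with its surrounding 10 kb. The deposited clonal fold ratio and focus ratio (a fraction of tags) were not interpreted, and the deposited region size equals end minus start. Per the file headers, histone regions were called with 150 bp windows and a 0.001 false discovery rate in control, but with 1000 bp windows and a Poisson cut of 0.001 in shEZH2.

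Tags per library were recovered as signal times the library total over 10000000, rounded. Widths count both ends. The deposited local p-value equalled a Poisson tail computed from tags and fold within 5% at 82.1% of 23026 control peaks, which is why local density was taken from the fold. Overlap meant at least 1 shared bp. Overlap and interval code was tested on simulated lists. Comparison windows were tiled along placed chromosomes, leaving out those touching the interval. Not analysed here were 3 further samples. The interval, genes and comparisons were chosen with earlier results of these data known. The rule for named regions took all EZH2 peaks and H3K27ac regions, the 5 H3K27me3 regions of each list with most tags, the widest, control regions not listed again and stretches over 10 kb without H3K27me3. Alternatives were another interval width, overlap, list length, tag minimum, scaling and background. Motifs in peaks were not computed, as no hg19 sequence was used. Scripts ran in Python 3.11.15. Intervals came from scipy 1.17.1, tables from pandas 2.3.3 with numpy 2.4.6, and plots from matplotlib 3.10.9.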

Additional observations from a re-analysis of the deposited data

How the results depend on the processing

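Of 81 alternative values for 20 results, 55 stayed within counting error or within 1.5-fold of the reported count, and regions wholly inside the interval gave the reported values. The upper 50% of each list by score held 4 EZH2 peaks in control and 0 in shEZH2, with 0% called again, 0% on H3K27ac and, for H3K27me3 regions, 0% called again. Lists of equal length held 2 control peaks and 1 in shEZH2, and a minimum of 15 normalised tags, per window or per kb, left 0 and 0. Against control peaks of like tags the background share called again was 12.5% instead of 23.1%, and the background share on a mark 73.0% instead of 76.1%. Widening the interval by 10 kb on each side gave covered shares of 1.52% and 5.80% for H3K27me3 and 4.56% and 9.52% for H3K27ac, in control and shEZH2. It put 16.4% of windows at or above the interval for H3K27me3 tags and 18.2% for H3K27ac tags. Among windows with a listed region these shares were 33.8% and 33.3%, and 0.599% for EZH2 peaks.

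The ratio of summed H3K27me3 tags, 1.72, was 0.673 when scaled to tags in listed regions and 1.44 over shEZH2 regions with control regions inside. Over those regions it was 0.563 with unlisted control bases at the density of a control call. For H3K27ac, 1.36 became 1.06 when scaled to listed tags and 0.853 with those bases filled. The order of control and shEZH2 thus depended on scaling and on unlisted tags. Chosen after seeing the data were the backgrounds of like tags, the filled control bases, the marks of shEZH2 and of both groups, and the dense windows with weak peaks. No paired analysis was possible because each group compared holds 1 library. Depth limits single EZH2 peaks of 10 to 19 library tags, whose intervals all overlap.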

Other observations

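Beyond the right edge, on the HOXA13 side of the interval, no H3K27me3 region was listed within 40 kb in control or shEZH2. On that side 3 control EZH2 peaks were listed, from 27252945 to 27253127 with 9.75 tags, from 27275080 to 27275262 with 6.75 and from 27275484 to 27275666 with 9.0. The shEZH2 list held none of them. H3K27ac of shEZH2, with 12.6 tags from 27274956 to 27275956, covered the peaks at 27275080 and 27275484, and control had no listed H3K27ac there.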
